A study of Mus musculus with 9 samples.

Results

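The 46 genes described here encode folding and protein quality control machinery of the cytosol and of the mitochondria. They are a named list of 33 cytosolic heat shock and chaperonin genes and 13 mitochondrial chaperone and protease genes grouped by what the proteins are known to do. No cutoff on a measured value entered the list, but it was drawn up with earlier results of these data known. All 46 were among the 24060 genes of the count table, and all 46 passed the filter on low counts that left 15153 genes to be tested. RNA was sequenced from primary immature neurons of mouse embryos of day 14 that were kept 2 days in vitro on poly-D-lysine, with fetal bovine serum and horse serum in the medium. The 3 groups of 3 independent replicates were untreated cultures (control), cultures given 1 mM 2-deoxyglucose (2-DG) and cultures given 10 mM 2-DG, each for 6 h. 2-DG resembles glucose and is taken up and phosphorylated, but goes no further in glycolysis. It also interferes with the building of the sugar chains of glycoproteins in the endoplasmic reticulum (ER). The title of the series is about Bdnf and ER stress acting through the transcription factor ATF4. Strain, sex and the number of embryos behind a replicate are not stated in the labels. The p-values therefore measure the spread between these libraries.

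Cells keep separate sets of chaperones in each compartment. In the cytosol, HSP70 proteins bind unfolded chains and J proteins bring them clients. HSP90 with its co-chaperones matures signalling proteins, and the ring-shaped chaperonin TRiC folds actin and tubulin. The heat shock factor HSF1 switches on many of these genes when unfolded proteins build up. In mitochondria, the HSP70 protein mortalin pulls in and folds imported chains, the chaperonin of Hspd1 and Hspe1 folds them further, and ATP-dependent proteases remove what cannot be folded. Mitochondria, cytosol and ER each have a stress response of their own.

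Mortalin stood apart from the other 45 genes. Hspa9, which encodes it, was 2.57-fold higher at 10 mM than in the control and 1.78-fold higher at 1 mM. The other mitochondrial genes that rose at 10 mM did so by small amounts (Clpx, Lonp1, Grpel1 and Yme1l1, log2 fold changes of 0.23 to 0.45). The mitochondrial chaperonin genes Hspd1 and Hspe1 did not pass the test at either dose in the main fit, which leaves out the replicate number. With the replicate number in the edgeR fit as a block, Hspd1 was slightly lower at 10 mM (-0.11, adjusted p = 0.00193) and at 1 mM (-0.10, adjusted p = 0.00623). In the cytosol the classic heat-inducible genes Hspa1a and Hspa1b stayed low in all 9 libraries. Hsf1, the small heat shock protein gene Hspb8 and the TRiC subunit gene Cct4 rose at 10 mM and the J protein gene Dnajb4 fell. Of the 22 members that passed the test at 10 mM in the main fit, 2 (Hspa9 and Hspb8) changed by more than 1.5-fold. Over all genes, 2620 of the 7538 that passed there (34.8%) did so.

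A gene was counted as changed where the adjusted p of edgeR's quasi-likelihood test, over all genes tested, was under 0.05. Such counts have to be read against how many genes of the whole table moved. In 10 mM against control, 25.7% of the genes tested were higher and 24.0% were lower. Of the 33 cytosolic members 8 were higher and 8 lower, and of the 13 mitochondrial members 5 were higher and 1 was lower. In 1 mM against control, where 5.69% of all genes were higher and 4.34% lower, 1 cytosolic member was higher and 0 were lower, and 2 mitochondrial members were higher and 0 were lower. For the counts of 0 in edgeR, 6 cytosolic and 0 mitochondrial members were lower at an unadjusted p under 0.05, and DESeq2 called 2 and 0. In 10 mM against 1 mM, where 17.5% of all genes were higher and 13.7% lower, 10 cytosolic members were higher and 3 lower, and 4 mitochondrial members were higher and 1 was lower. The cytosolic shares at 10 mM, 24.2% higher and 24.2% lower, lay near those of all genes.

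The counts depended on whether the replicate number entered the fit, since libraries of 1 number deviated together. With the number as a block, 13 cytosolic members were higher and 12 lower in 10 mM against control, and 8 mitochondrial members were higher and 2 lower, where 34.4% of all genes were higher and 33.8% lower. With the block 2 cytosolic members were higher and 11 lower in 1 mM against control, and 6 mitochondrial members were higher and 2 lower, where 18.1% of all genes were higher and 18.3% lower. In 10 mM against 1 mM the block gave 15 cytosolic members higher and 4 lower, where 30.7% of all genes were higher and 25.6% lower. Members whose call changed with the block are named with that p below. Scaling to library totals alone, without the TMM factors, moved the median log2 fold change of all genes in 10 mM against control to -0.10 and the share of higher calls among all calls to 37.4%, against 51.7% with the factors. It left 5 cytosolic members higher and 12 lower, where 18.8% of all genes were higher and 31.5% lower.

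**Figure D1:**
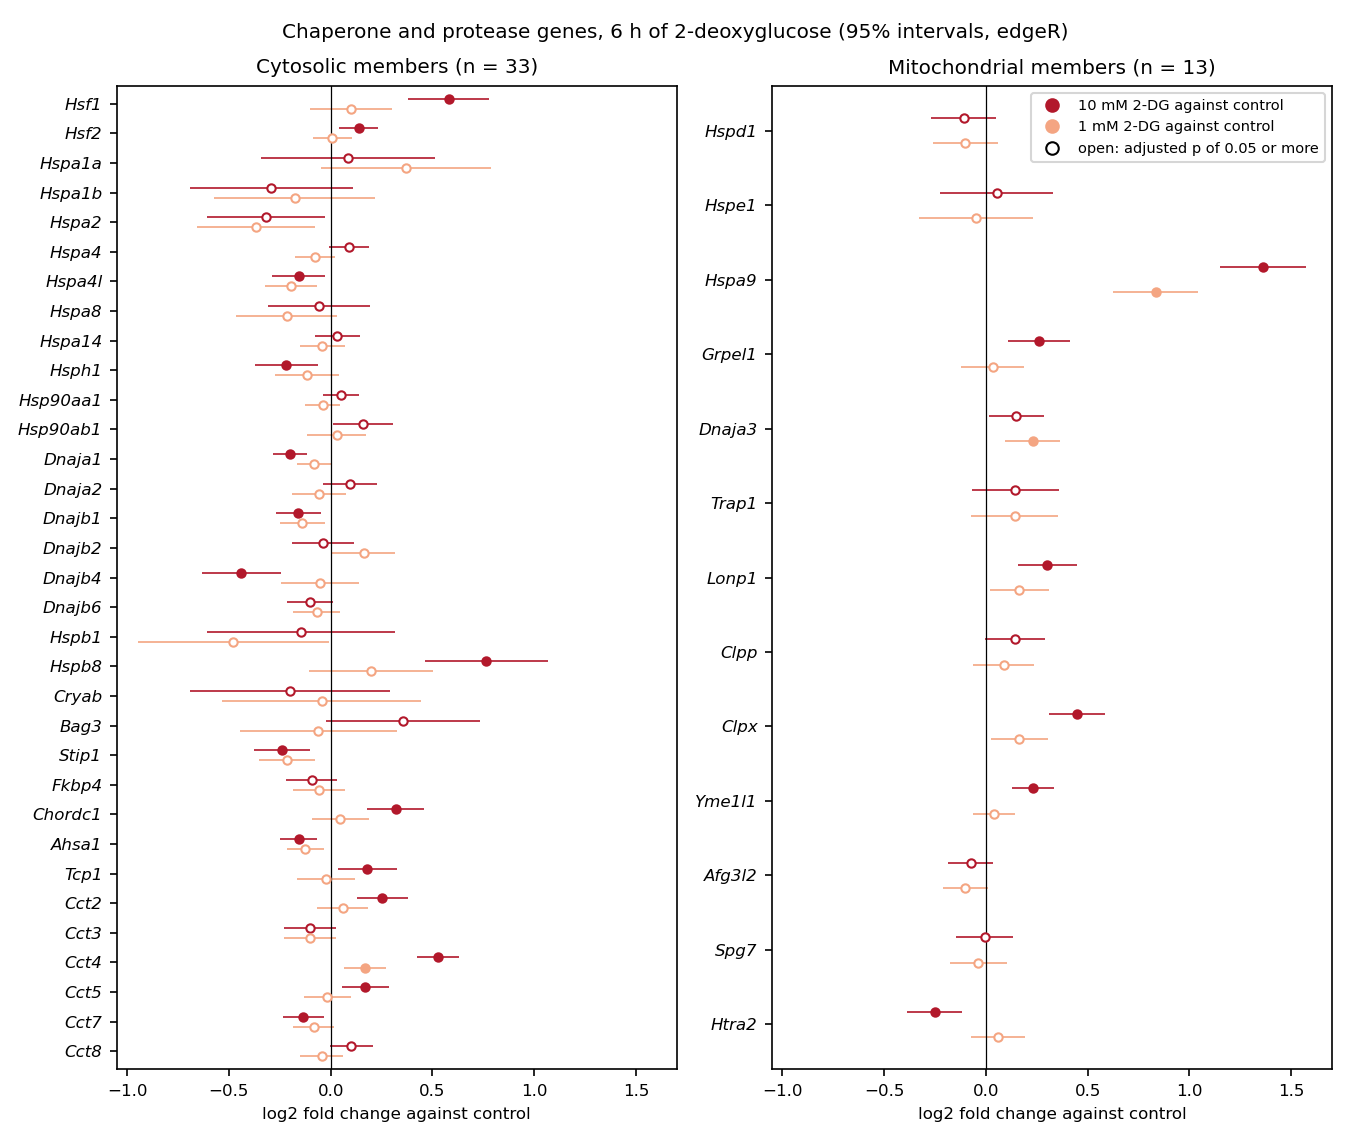
Log2 fold changes of the 33 cytosolic members (left panel) and the 13 mitochondrial members (right panel), in 10 mM against control (dark red) and in 1 mM against control (orange), with 95% intervals from edgeR; filled points have an adjusted p under 0.05. Hspa9 lies at 1.36 and 0.83, away from every other member, and most other points lie between -0.5 and 0.5.

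CPM below stands for a gene's counts after scaling every library to 1 common total. The libraries held 40.1 to 48.2 M counts, so that even the lowest member, Hspa1a, had 35 to 57 counts per library, while Hsp90ab1 had 83479 to 114800. The cultures expressed the markers of immature neurons. Their 10 genes summed to 7080 to 7428 CPM in the control, 6833 to 7056 CPM at 1 mM and 5898 to 6231 CPM at 10 mM. Of the 10, 0 were lower at 1 mM in edgeR (1 at an unadjusted p under 0.05, 0 in DESeq2) and 4 were lower at 10 mM (among them Tubb3 and Gap43). The other 6 did not pass at 10 mM. The median log2 fold change of the 10 there was -0.078, and 3 had a positive value, of up to 0.13. Markers of other cells were present too, with by far the highest sums for radial glia and progenitors, and some moved with dose. The 10 microglial markers summed to 56.9 to 86.4 CPM in the control, 24.8 to 30.8 CPM at 1 mM and 26.7 to 39.5 CPM at 10 mM, with 7 and 9 of 10 lower at the 2 doses. The 8 markers of radial glia and progenitors summed to 1387 to 1779 CPM, 1181 to 1448 CPM and 1098 to 1326 CPM in the same order, with 2 and 4 of 8 lower. Astrocyte markers summed to 30.3 to 61.5 CPM in the control, 24.8 to 44.1 CPM at 1 mM and 20.2 to 39.6 CPM at 10 mM. In the same order, oligodendrocyte lineage markers summed to 60.3 to 66.4, 50.7 to 57.0 and 41.6 to 47.6 CPM, and endothelial and pericyte markers to 34.0 to 47.0, 34.0 to 44.3 and 30.0 to 37.9 CPM. Fibroblast and meningeal markers summed to 74.2 to 136, 69.4 to 134 and 69.5 to 122 CPM. The 5 erythroid markers summed to 0.109 to 0.368 CPM in the control, 0.121 to 0.382 at 1 mM and 0.116 to 0.542 at 10 mM. All 4 globin genes among them were at 0 in all 9 libraries. How reads shared between globin genes were counted is not known here, so these values do not show that erythroid cells were absent. The ribosomal RNA precursor gene Rn45s held 0.960 to 1.05% of counts in the control, 0.589 to 0.884% at 1 mM and 0.534 to 0.563% at 10 mM. Fewer cells of a type and less RNA per cell cannot be told apart in these samples, and the part of these shifts in the results below was not tested.

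The heat shock transcription factors come first, since they act on many of the other genes. Hsf1, the main activator of the heat shock genes, had 24.7, 30.8 and 27.9 CPM in the control, 28.6, 30.3 and 30.8 at 1 mM and 41.2, 38.02 and 45.6 at 10 mM. The 3 libraries of 10 mM lay above all 6 others, while the 1 mM and control libraries overlapped. Its log2 fold change was 0.58 ± 0.09 (SE) in 10 mM against control (adjusted p = 4.02e-04) and 0.10 ± 0.091 in 1 mM against control (adjusted p = 0.564). Hsf2, a relative that binds the same DNA element, moved less, with a log2 fold change of 0.14 ± 0.043 in 10 mM against control (adjusted p = 0.0207). The call of Hsf2 was lost with library totals alone, with no filter and without any control replicate, 10 mM replicate 2 or 3 or all replicates 2 (adjusted p = 0.0544 to 0.3798). HSF1 is known to be controlled mainly at the level of its protein, so its transcript level is described here as such.

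Heat shock factors bind repeats of the element nGAAn in alternating orientation. Promoters of 300 bases (250 before and 50 after the start of transcription, RefSeq, build GRCm38.p6) were at hand for 37 of the 46 members, 47 promoters in all. They were searched for the heat shock element GAANNTTC or TTCNNGAA, which are each their own reverse complement and so cover both strands. Matches may overlap. The element stood in 18 of the 47 promoters (38.3%), 15 of 36 cytosolic (41.7%) and 3 of 11 mitochondrial ones (27.3%, those of Hspd1, Hspe1 and Clpp), and in 15.1% of all 32851 promoters of the same length. The 4 promoters below are shown because they carry the element and their genes differ in what they did at 10 mM: Hspa1a and Hspe1 did not pass the test, Chordc1 rose and Hsph1 fell. They are written 5′ to 3′ on the gene's strand, with the matches in capitals. They lie at chr17:34972107-34972406 (minus strand, Hspa1a), chr1:55087898-55088197 (plus strand, Hspe1), chr9:18292017-18292316 (plus strand, Chordc1) and chr5:149636266-149636565 (minus strand, 1 of 2 listed starts of Hsph1).
Hspa1a: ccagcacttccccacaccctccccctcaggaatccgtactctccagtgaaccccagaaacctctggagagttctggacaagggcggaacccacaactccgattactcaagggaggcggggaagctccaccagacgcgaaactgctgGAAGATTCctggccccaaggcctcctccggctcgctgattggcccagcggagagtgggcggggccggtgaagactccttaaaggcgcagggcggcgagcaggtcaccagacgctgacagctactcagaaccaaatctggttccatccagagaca
Hspe1: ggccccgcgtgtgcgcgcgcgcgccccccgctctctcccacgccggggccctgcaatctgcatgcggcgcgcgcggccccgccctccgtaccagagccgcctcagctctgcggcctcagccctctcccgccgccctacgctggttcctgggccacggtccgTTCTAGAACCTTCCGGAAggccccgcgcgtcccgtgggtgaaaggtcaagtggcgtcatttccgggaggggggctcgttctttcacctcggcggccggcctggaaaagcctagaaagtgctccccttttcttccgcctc
Chordc1: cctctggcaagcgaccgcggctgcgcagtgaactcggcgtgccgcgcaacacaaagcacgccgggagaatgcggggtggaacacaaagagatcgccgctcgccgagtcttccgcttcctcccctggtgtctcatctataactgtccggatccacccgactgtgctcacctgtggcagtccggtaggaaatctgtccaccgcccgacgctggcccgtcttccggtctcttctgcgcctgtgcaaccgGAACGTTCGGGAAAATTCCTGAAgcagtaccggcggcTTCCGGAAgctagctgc
Hsph1: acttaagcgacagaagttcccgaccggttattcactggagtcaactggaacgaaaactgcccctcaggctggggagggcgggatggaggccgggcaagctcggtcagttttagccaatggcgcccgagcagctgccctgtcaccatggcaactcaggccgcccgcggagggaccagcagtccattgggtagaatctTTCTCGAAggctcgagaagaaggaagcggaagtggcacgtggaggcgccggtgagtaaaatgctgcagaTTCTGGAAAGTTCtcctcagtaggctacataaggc
Hspa1a has 1 match, Hspe1 and Hsph1 have 3 each and Chordc1 has 5, of which the first 4 overlap and the fifth stands apart. Hspd1 and Hspe1 lie head to head on chromosome 1 and share this stretch, so the 3 matches of Hspe1 are also those before 1 of the 2 listed starts of Hspd1. Of the 16 members with a match, 4 were higher at 10 mM than in the control (Chordc1, Hspb8, Cct2 and Cct5), 3 were lower (Dnaja1, Dnajb4 and Hsph1) and 9 did not pass. Of the 21 members with promoters and no match, 6 were higher, 5 lower and 10 did not pass. The composite site of ATF4 and CHOP (TGATGNAAT) and the unfolded protein response element in its short form (TGACGTGG) were also searched on both strands: they stood in 0 of the 47 promoters, against 0.965% and 0.676% of all promoters. Both strings are rare, and they also stood in 0 of the 10 promoters at hand of ER lumen chaperone genes, so their absence here tells little. A match is a string of letters and not a bound site, and promoters of Hspa9, Hsf1, Hspa8, Hsp90aa1, Hsp90ab1, Cct4, Cryab, Htra2 and Afg3l2 were not analysed here.

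Of the 8 genes of the cytosolic HSP70 and HSP110 family, 0 were higher than the control at either dose in edgeR without the block, at an unadjusted p under 0.05 and in DESeq2, and 2, Hspa4l and Hsph1, were lower at 10 mM. With the block 1 of the 8, Hspa4, was called higher at 10 mM (0.088, adjusted p = 0.00400). Hspa1a, which with its neighbour Hspa1b encodes the heat-inducible HSP70 protein, had 0.9803, 0.7996 and 0.938 CPM in the control, 1.18, 1.28 and 1.06 at 1 mM and 1.02, 1.07 and 0.802 at 10 mM. Hspa1b had 2.79, 2.63 and 2.99 CPM in the control, 2.52, 2.49 and 2.43 at 1 mM and 2.26, 1.68 and 2.904 at 10 mM. Both stayed under 3 CPM in all 9 libraries. The log2 fold change of Hspa1a in 10 mM against control was 0.084 ± 0.19 (95% interval -0.34 to 0.51, adjusted p = 0.744), and that of Hspa1b was -0.29 ± 0.18 (95% interval -0.69 to 0.11, adjusted p = 0.204). Hspa1a was higher in all 3 libraries of 1 mM than in the 3 of the control, but at 0.37 ± 0.19 the difference did not pass (adjusted p = 0.274). These 2 genes are near copies, so the split of reads between them is uncertain. Their summed level is uncertain too, since it is not known here how shared reads were counted. Of their 75-base windows (the read length), 54.2% for Hspa1a and 55.8% for Hspa1b occurred in another gene's transcripts as well, mostly in each other's.

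Hspa8, the abundant HSP70 present in unstressed cells, had 235, 225 and 264 CPM in the control, 204, 179 and 239.8 at 1 mM and 231, 203 and 262 at 10 mM. The groups overlapped, with replicate 2 the lowest of each. Its log2 fold change was -0.058 ± 0.11 in 10 mM against control (95% interval -0.31 to 0.19) and -0.22 ± 0.11 in 1 mM against control (adjusted p = 0.282), where the blocked fit called it lower (adjusted p = 1.26e-05). Pseudogenes limit this value too, since 68.6% of the 75-base windows of Hspa8 occurred in other genes. Hsph1, an HSP110 protein that helps HSP70 release its nucleotide, had 105, 101 and 106 CPM in the control, 98.1, 95.1 and 94.9 at 1 mM and 97.5, 78.5 and 92.8 at 10 mM. All 3 libraries of 10 mM lay below those of the control, with a log2 fold change of -0.22 ± 0.071 (adjusted p = 0.0250). The call of Hsph1 was lost without control replicate 3 (adjusted p = 0.0521). In 1 mM against control Hsph1 was at -0.12 (adjusted p = 0.358, 0.0362 with the block). Hspa4l, another HSP110 protein, was at -0.16 in 10 mM against control (adjusted p = 0.0457) and at -0.20 in 1 mM against control (adjusted p = 0.0613, 4.29e-04 with the block). At 10 mM the call of Hspa4l was lost with no filter, in the fit of 6 libraries and without control replicate 3, 1 mM replicate 1 or 3, 10 mM replicate 1 or 2 or all replicates 2 (adjusted p = 0.0604 to 0.119). Hspa4, the third HSP110 gene, had a log2 fold change of 0.088 in 10 mM against control (adjusted p = 0.125, 0.00400 with the block) and of -0.078 in 1 mM against control (adjusted p = 0.333, 0.0186 with the block). Hspa2, best known from testis, had -0.32 and -0.37 in 10 mM and in 1 mM against control (adjusted p = 0.0658 and 0.111, 0.0193 and 0.0180 with the block). Hspa14, a ribosome-bound HSP70, had 0.033 and -0.041, neither past the threshold.

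The cytosolic HSP90 genes did not pass at either dose without the block, and Hsp90ab1 was the most highly expressed member. Hsp90ab1, the constitutive form, had 2093, 1986 and 2264 CPM in the control, 2149, 2016 and 2304 at 1 mM and 2369, 2221 and 2488 at 10 mM. The groups overlapped, and within each group replicate 2 was the lowest and replicate 3 the highest. Its log2 fold change of 0.16 ± 0.066 in 10 mM against control missed the threshold (adjusted p = 0.0683) and passed it with the block (adjusted p = 1.73e-06). Hsp90aa1, the form that heat induces, had 490.3, 489 and 512 CPM in the control, 478, 477 and 496 at 1 mM and 516, 509 and 519 at 10 mM. Its difference in 10 mM against control was 0.050 ± 0.039 (95% interval -0.037 to 0.14), with 53.1% of its 75-base windows shared with other genes.

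Of the 4 HSP90 co-chaperones, 1 rose and 2 fell at 10 mM. Chordc1, a zinc-binding partner of HSP90 that heat induces, had 63.5, 72.9 and 71.1 CPM in the control, 67.7, 71.3 and 75.5 at 1 mM and 84.01, 85.9 and 89.1 at 10 mM. The libraries of 10 mM all lay above the other 6, and the log2 fold change was 0.32 ± 0.063 (adjusted p = 0.00172). Stip1, the adaptor that hands clients of HSP70 to HSP90, had 284, 268 and 299 CPM in the control, 247, 230.3 and 255 at 1 mM and 243, 222 and 255 at 10 mM. It was lower in every 2-DG library than in every control library, by -0.24 ± 0.063 in 10 mM against control (adjusted p = 0.00904) and by -0.21 ± 0.063 in 1 mM against control (adjusted p = 0.0574, 1.6e-06 with the block). Ahsa1, which speeds the ATPase of HSP90, fell by 0.16 on the log2 scale at 10 mM (adjusted p = 0.00815) and was at -0.12 in 1 mM against control (adjusted p = 0.0826, 0.00241 with the block). Fkbp4, an immunophilin of steroid receptor complexes, had -0.094 at 10 mM (adjusted p = 0.201, 0.00522 with the block).

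Of the 6 J proteins, which stimulate the ATPase of HSP70, 0 rose in edgeR (0 at an unadjusted p under 0.05, 0 in DESeq2) and 3 fell at 10 mM. Dnajb4 had 25.98, 30.1 and 29.8 CPM in the control, 26.4, 28.9 and 27.6 at 1 mM and 19.8, 23.5 and 20.05 at 10 mM. The 3 libraries of 10 mM lay below all others, with a log2 fold change of -0.44 ± 0.088 in 10 mM against control (adjusted p = 0.00190) and -0.052 ± 0.087 in 1 mM against control (adjusted p = 0.786). Dnaja1 had 169.9, 171 and 171 CPM in the control, 162, 163 and 159 at 1 mM and 150.1, 146 and 149 at 10 mM. Its 3 groups did not overlap and were ordered by dose, with -0.20 ± 0.038 in 10 mM against control (adjusted p = 0.00131) and -0.080 ± 0.038 in 1 mM against control (adjusted p = 0.228, 0.0298 with the block). Dnajb1, the main partner of the inducible HSP70 and itself heat-inducible, had 73.1, 66.5 and 73.1 CPM in the control, 65.4, 64.1 and 63.7 at 1 mM and 63.8, 62.7 and 64.1 at 10 mM. Every 2-DG library was below every control library, by -0.16 ± 0.05 at 10 mM (adjusted p = 0.0219) and -0.14 ± 0.05 at 1 mM (adjusted p = 0.113, 0.00523 with the block). The call of Dnajb1 at 10 mM was lost without control replicate 1 or 3 or 10 mM replicate 1 or 3 (adjusted p = 0.0505 to 0.0560). Dnaja2, Dnajb2 and Dnajb6 had 0.10, -0.038 and -0.10 in 10 mM against control and did not pass (adjusted p = 0.211, 0.673 and 0.129). With the block Dnaja2 was higher and Dnajb6 lower at 10 mM (adjusted p = 0.00410 and 0.0283), and Dnajb2, a J protein of neurons, was higher at 1 mM (0.16, adjusted p = 0.00674).

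Small heat shock proteins hold unfolded proteins without using ATP, and Bag3 links them to HSP70 and to selective autophagy. Hspb8 had 5.37, 6.51 and 5.93 CPM in the control, 5.75, 7.12 and 7.57 at 1 mM and 8.64, 10.8 and 10.8 at 10 mM. The libraries of 10 mM did not overlap those of the control, and the log2 fold change of 0.76 ± 0.14 (adjusted p = 9.31e-04) was the largest among the cytosolic members. At 1 mM it was at 0.20 ± 0.14 (adjusted p = 0.439). Its partner Bag3 was low, at 1.91 to 2.27 CPM in the control, 1.61 to 2.32 CPM at 1 mM and 2.36 to 3.08 CPM at 10 mM. Its 0.35 ± 0.17 at 10 mM did not pass (adjusted p = 0.1099) except with the block (adjusted p = 0.0294). Hspb1 and Cryab, at 0.972 to 2.10 and 2.65 to 4.64 CPM over the 9 libraries, did not pass, with 95% intervals of -0.61 to 0.31 and -0.69 to 0.29 in 10 mM against control. Changes within those bounds were not detectable at this depth and number of libraries.

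The TRiC subunits, which assemble into a ring in equal numbers, did not move together at the level of RNA. At 10 mM 4 of the 7 subunit genes among the members were higher (Cct4, Cct2, Tcp1 and Cct5), 1 was lower (Cct7) and 2 did not pass (Cct3 and Cct8). Cct4 had 353, 353 and 329 CPM in the control, 397, 389 and 375 at 1 mM and 513, 482 and 497 at 10 mM. Its 3 groups did not overlap and rose with dose, by 0.53 ± 0.046 at 10 mM (adjusted p = 8.6e-06) and 0.17 ± 0.046 at 1 mM (adjusted p = 0.0438). The call at 1 mM was lost with no filter, in the fit of 6 libraries and without any control replicate, any 1 mM replicate, 10 mM replicate 1 or 3 or all replicates 2 (adjusted p = 0.0560 to 0.163). Cct2 had 491, 441 and 484 CPM in the control, 512, 463 and 499.998 at 1 mM and 574, 535 and 581 at 10 mM. Its libraries of 10 mM lay above those of both other groups, with 0.25 ± 0.058 in 10 mM against control (adjusted p = 0.00396). Tcp1, the subunit that gave the complex its name, had 526, 469.8 and 529.7 CPM in the control, 521, 465 and 515 at 1 mM and 594, 538 and 595 at 10 mM. Its log2 fold change was 0.18 ± 0.065 in 10 mM against control (adjusted p = 0.0404). The call of Tcp1 was lost with RLE size factors, with library totals alone and without any control replicate or 10 mM replicate 1 or 3 (adjusted p = 0.0518 to 0.2403). Tcp1 shares 11.35% of its exon bases with Acat3 on the opposite strand and 10.12% of its 75-base windows with Acat2. Cct5 was at 0.17 in 10 mM against control (adjusted p = 0.0200). This call was lost with library totals alone and without control replicate 2 or 3 or 10 mM replicate 1 or 3 (adjusted p = 0.0555 to 0.188). Cct7 was at -0.14 (adjusted p = 0.0290), a call lost without control replicate 1 or 10 mM replicate 2 or 3 (adjusted p = 0.0584 to 0.0737). It was at -0.084 in 1 mM against control (adjusted p = 0.302, 0.0122 with the block). Cct3 had -0.10 in 10 mM and -0.10 in 1 mM against control (adjusted p = 0.162 and 0.316, 0.00131 and 0.00326 with the block), and Cct8 had 0.10 at 10 mM (adjusted p = 0.0964, 9.41e-04 with the block). The remaining subunit gene Cct6a, no member, had -0.065 at 10 mM (adjusted p = 0.451).

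The mitochondrial chaperone genes moved unequally, with mortalin far ahead of the rest. Hspa9 had 414, 361 and 400.1 CPM in the control, 726, 598 and 771 at 1 mM and 1021, 918 and 1081 at 10 mM. The 3 groups did not overlap, the order followed the dose, and replicate 2 was the lowest in each group. The log2 fold change was 1.36 ± 0.096 in 10 mM against control (95% interval 1.15 to 1.57, adjusted p = 1.8e-06) and 0.83 ± 0.095 in 1 mM against control (95% interval 0.63 to 1.04, adjusted p = 2.99e-04). It was 0.53 ± 0.094 in 10 mM against 1 mM (adjusted p = 0.00217). The gene kept its call in every alternative tried in all 3 comparisons, and 0.34% of its 75-base windows occurred in another gene, so read sharing touched it little. Grpel1, the exchange factor that recharges mortalin, had 67.5, 60.5 and 62.3 CPM in the control, 67.4, 63.3 and 64.1 at 1 mM and 78.1, 68.4 and 81.4 at 10 mM. The libraries of 10 mM lay above the others, with 0.26 ± 0.07 (adjusted p = 0.0101). The call of Grpel1 was lost without control replicate 2 or 3 (adjusted p = 0.0501 to 0.0534). It shares 11.7% of its exon bases with Tada2b on the opposite strand, which rose as well (0.33, adjusted p = 0.00166), and the labels do not say whether the counting used strand. Dnaja3, the J protein of mortalin, passed at the lower dose alone. It was at 0.23 ± 0.06 in 1 mM (adjusted p = 0.0379) and at 0.15 ± 0.06 in 10 mM against control (adjusted p = 0.0609, 0.00127 with the block). It had 49.97, 54.3 and 49.9 CPM in the control, 59.3, 62.1 and 59.4 at 1 mM and 54.9, 61.3 and 54.9 at 10 mM, with every 2-DG library above every control library. The difference between the doses, -0.079 ± 0.06 in 10 mM against 1 mM, did not pass (adjusted p = 0.349). The call at 1 mM was lost with library totals alone, with no filter and without control replicate 1 or 3, any 1 mM replicate or 10 mM replicate 1 or 3 (adjusted p = 0.0513 to 0.128).

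The chaperonin genes did not pass the test at either dose without the block. Hspd1, which encodes the barrel, had 180.1, 159.7 and 181 CPM in the control, 166, 148 and 172 at 1 mM and 164, 150.1 and 169 at 10 mM. Hspe1, which encodes its lid, had 48.7, 39.96 and 52.3 CPM in the control, 45.3, 39.7 and 51.4 at 1 mM and 49.1, 41.98 and 55.03 at 10 mM. For both the groups overlapped and replicate 2 was the lowest in each group. Hspd1 was at -0.11 ± 0.072 in 10 mM against control (95% interval -0.27 to 0.052, adjusted p = 0.2396) and at -0.10 ± 0.072 in 1 mM against control (adjusted p = 0.443). The blocked fit called it lower at both doses (adjusted p = 0.00193 and 0.00623). Hspe1 was at 0.052 ± 0.13 (95% interval -0.23 to 0.33) and -0.048 ± 0.13 (95% interval -0.33 to 0.23). The intervals lie below the rise of Hspa9 at 10 mM, and the shares of 75-base windows found in other genes were 33.7% for Hspd1 and 23.7% for Hspe1. Trap1, the HSP90 of mitochondria, had 67.1, 55.2 and 60.4 CPM in the control, 73.4, 61.5 and 66.4 at 1 mM and 74.1, 59.5 and 68.2 at 10 mM. It overlapped between groups, at 0.14 ± 0.097 in 10 mM and 0.14 ± 0.097 in 1 mM against control (adjusted p = 0.244 and 0.4298), and passed with the block at both doses (adjusted p = 0.00112 and 0.00315).

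Of the 7 protease genes, 3 rose and 1 fell at 10 mM. Clpx, the unfoldase that feeds the ClpXP protease, had 47.7, 46.7 and 46.1 CPM in the control, 53.7, 49.2 and 54.2 at 1 mM and 66.04, 58.6 and 66.7 at 10 mM. Its 3 groups did not overlap and followed the dose, with 0.45 ± 0.063 at 10 mM (adjusted p = 2.02e-04) and 0.16 ± 0.063 at 1 mM (adjusted p = 0.141, 0.00409 with the block). Clpp, the proteolytic partner, had 66.4, 60.8 and 69.2 CPM in the control, 71.05, 65.03 and 72.6 at 1 mM and 74.5, 67.3 and 75.1 at 10 mM. It was at 0.14 ± 0.068 at 10 mM (adjusted p = 0.102, 7.6e-04 with the block) and at 0.088 ± 0.068 at 1 mM (adjusted p = 0.494, 0.0461 with the block), less than Clpx in each case, a difference that was not tested. Lonp1, the protease of the matrix that degrades damaged and misfolded proteins, had 129.7, 114 and 125 CPM in the control, 144, 131 and 139 at 1 mM and 158, 141 and 157 at 10 mM. Every 2-DG library lay above every control library, by 0.30 ± 0.065 at 10 mM (adjusted p = 0.00290) and 0.16 ± 0.065 at 1 mM (adjusted p = 0.1495, 1.42e-04 with the block).

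Among the proteases of the inner membrane, Yme1l1, which faces the intermembrane space, had 233, 221 and 232 CPM in the control, 231, 227 and 248 at 1 mM and 269.8, 263 and 272 at 10 mM. It rose by 0.23 ± 0.047 at 10 mM (adjusted p = 0.00206) and was at 0.042 ± 0.047 at 1 mM (adjusted p = 0.663). Afg3l2 and Spg7, the subunits of the protease that faces the matrix, did not pass at 10 mM (-0.075 and -0.0052, adjusted p = 0.234 and 0.953), and Afg3l2 was called lower at 1 mM with the block (-0.10, adjusted p = 0.0353). Htra2, a serine protease of the intermembrane space, went the other way and had 35.8, 36.8 and 34.4 CPM in the control, 38.3, 37.6 and 35.5 at 1 mM and 31.4, 30.1 and 28.4 at 10 mM. The libraries of 10 mM lay below all others, with -0.25 ± 0.061 in 10 mM against control (adjusted p = 0.00572) and 0.058 ± 0.061 in 1 mM against control (adjusted p = 0.629). Its exons overlap those of Aup1 (25.6% of exon bases) and Loxl3 (18.2%) on the opposite strand, of which Aup1 rose (0.56, adjusted p = 1.53e-05) and Loxl3 fell (-0.69, adjusted p = 0.00838) at 10 mM.

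**Figure D2:**
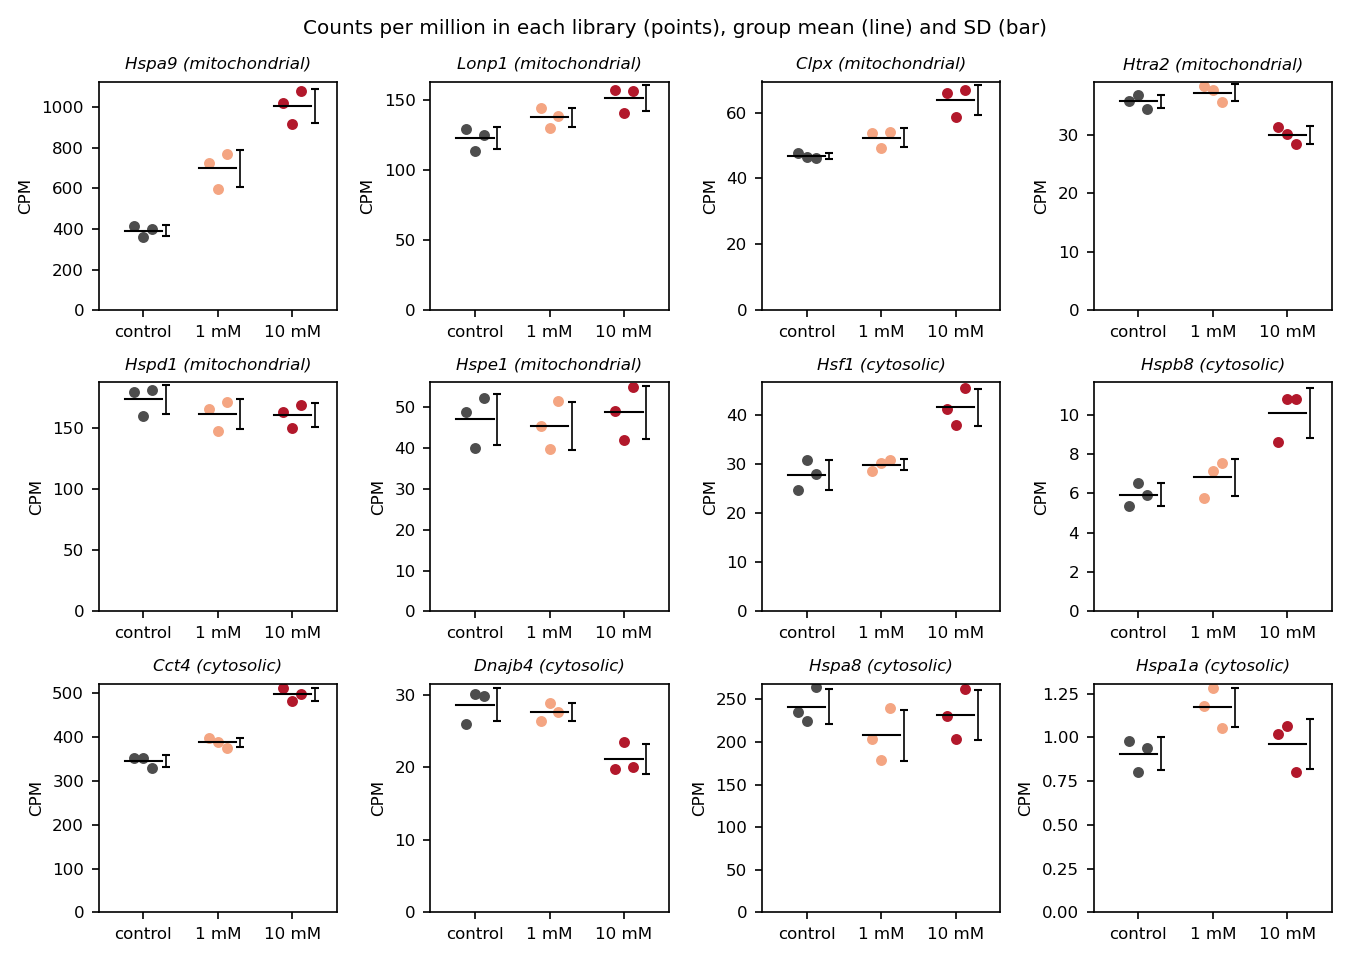
CPM of 12 members in each of the 9 libraries (points), with the mean of each group (line) and its SD (bar), for control, 1 mM and 10 mM 2-DG; every vertical axis starts at 0. Hspa9 climbs with dose with no overlap between groups, Hspd1, Hspe1, Hspa8 and Hspa1a overlap between 10 mM and control, and Htra2 and Dnajb4 are lower at 10 mM.

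The step from 1 mM to 10 mM passed the test in 18 members. Higher at 10 mM than at 1 mM were Hspb8 (0.57), Hspa9 (0.53), Hsf1 (0.48), Cct4 (0.36), Clpx (0.28), Chordc1 (0.27), Grpel1 (0.23), Tcp1 (0.20), Cct2 (0.20), Cct5 (0.19), Yme1l1 (0.19), Hspa4 (0.17), Cct8 (0.15) and Hsf2 (0.13), as log2 fold changes. Lower at 10 mM than at 1 mM were Dnajb4 (-0.39), Htra2 (-0.31), Dnajb2 (-0.20) and Dnaja1 (-0.12). Hspa9, Cct4 and Dnaja3 were the 3 members that passed in 1 mM against control, and Hspa9 and Cct4 passed in all 3 comparisons. Hspb8, Hspa9, Hsf1, Cct4, Chordc1, Clpx, Dnajb4 and Htra2 kept the call in every alternative, and the other 10 lost it in at least 1. Grpel1 lost it with library totals alone and without any control replicate, any 1 mM replicate or 10 mM replicate 1 or 3 (adjusted p = 0.0508 to 0.124). Tcp1 lost it with library totals alone and without control replicate 1 or 3, any 1 mM replicate or 10 mM replicate 1 or 3 (adjusted p = 0.0514 to 0.169). Cct2 lost it with library totals alone and without control replicate 3, 1 mM replicate 2 or 10 mM replicate 1 or 3 (adjusted p = 0.0534 to 0.127). Cct5 lost it with library totals alone and without 1 mM replicate 2 or 3 or 10 mM replicate 1 or 3 (adjusted p = 0.0514 to 0.118). Yme1l1 lost it with library totals alone and without 1 mM replicate 2 (adjusted p = 0.0653 to 0.0906). Hspa4 lost it with library totals alone and without 1 mM replicate 1 or 2 or 10 mM replicate 3 (adjusted p = 0.0574 to 0.1599). Cct8 lost it with RLE size factors, with library totals alone, with no filter, in the fit of 6 libraries and without any control replicate, any 1 mM replicate or 10 mM replicate 1 or 3 (adjusted p = 0.0515 to 0.285). Hsf2 lost it with RLE size factors, with library totals alone, with no filter, in the fit of 6 libraries and without any control replicate, any 1 mM replicate, any 10 mM replicate or all replicates 2 (adjusted p = 0.0550 to 0.424). Dnajb2 lost it with no filter and without any 1 mM replicate or 10 mM replicate 1 or 3 (adjusted p = 0.0816 to 0.153). Dnaja1 lost it with no filter and without any 1 mM replicate or 10 mM replicate 1 or 3 (adjusted p = 0.0515 to 0.111). With the block 8 further members passed, 7 higher (Hspa8, Hsp90aa1, Hsp90ab1, Dnaja2, Bag3, Hspe1 and Lonp1) and 1 lower (Hsph1), with adjusted p between 3.52e-05 and 0.0472.

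The compartments were then set side by side. The median log2 fold change in 10 mM against control was -0.038 over the 33 cytosolic members and 0.14 over the 13 mitochondrial members, with -0.011 over all genes tested. In 1 mM against control the medians were -0.056 and 0.058, with 0.0034 over all genes. Library by library, the median over cytosolic members relative to the control mean was -0.030, -0.038 and 0.051 at 10 mM, against -0.00025, -0.032 and 0.037 in the control. The median over mitochondrial members was 0.19, 0.040 and 0.20 at 10 mM, against 0.053, -0.069 and -0.012 in the control. Between libraries of the same replicate number the mitochondrial median was 0.13, 0.11 and 0.21 higher at 10 mM than in the control. Replicate 2 was the lowest in both groups, and at 10 mM it lay within the range of the control. The medians describe the lists and carry no test.

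Pairs of related proteins, 1 in each compartment, gave a measure that does not depend on how libraries are scaled. For 4 pairs, the log2 ratio of counts in a library was tested for any difference between the 3 groups. The test was an exact permutation test over the 9 libraries (smallest possible p 0.00357), with adjustment over the 4 pairs. The pairs were drawn from members listed with earlier results of these data known. The ratios use the same counts as the edgeR test, so they are no independent support for its calls. The mitochondrial over the cytosolic HSP70, Hspa9 over Hspa8, had log2 ratios of 0.82, 0.68 and 0.60 in the control, 1.83, 1.74 and 1.68 at 1 mM and 2.15, 2.17 and 2.05 at 10 mM. The groups did not overlap, and the mean was 1.42 higher at 10 mM and 1.05 higher at 1 mM than in the control (exact permutation p = 0.00357, adjusted p = 0.00714). The J proteins Dnaja3 over Dnaja1 had a mean of -1.73 ± 0.071 in control libraries (SD, n = 3), -1.42 ± 0.031 with 1 mM and -1.38 ± 0.11 with 10 mM. The difference was 0.35 in 10 mM against control (exact permutation over the 3 groups, adjusted p = 0.0381). The chaperonin pair, in which 1 subunit gene, Tcp1, stands for TRiC, moved the opposite way. Since the TRiC subunits did not move together, the ratio holds for Tcp1 alone. In 10 mM against control Hspd1 was at -0.11, near Cct7 (-0.14), Cct3 (-0.10) and Cct6a (-0.065). Cct4 (0.53), Cct2 (0.25), Cct5 (0.17) and Cct8 (0.10) were on the side of Tcp1 (0.18). Hspd1 over Tcp1 had -1.55 ± 0.0057 in control libraries, -1.63 ± 0.039 with 1 mM and -1.84 ± 0.024 with 10 mM, a difference of -0.29 in 10 mM against control (exact permutation over the 3 groups, adjusted p = 0.00714). The HSP90 pair, Trap1 over Hsp90ab1, did not differ beyond its spread, at -5.12 ± 0.14, -5.01 ± 0.12 and -5.14 ± 0.12 in the same order (exact permutation, adjusted p = 0.432). With arrangements kept within replicate numbers (smallest possible p 0.0278) the adjusted p was 0.0556, 0.0833, 0.0556 and 0.0833 for the 4 pairs in the order given, so no pair passed there.

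**Figure D3:**
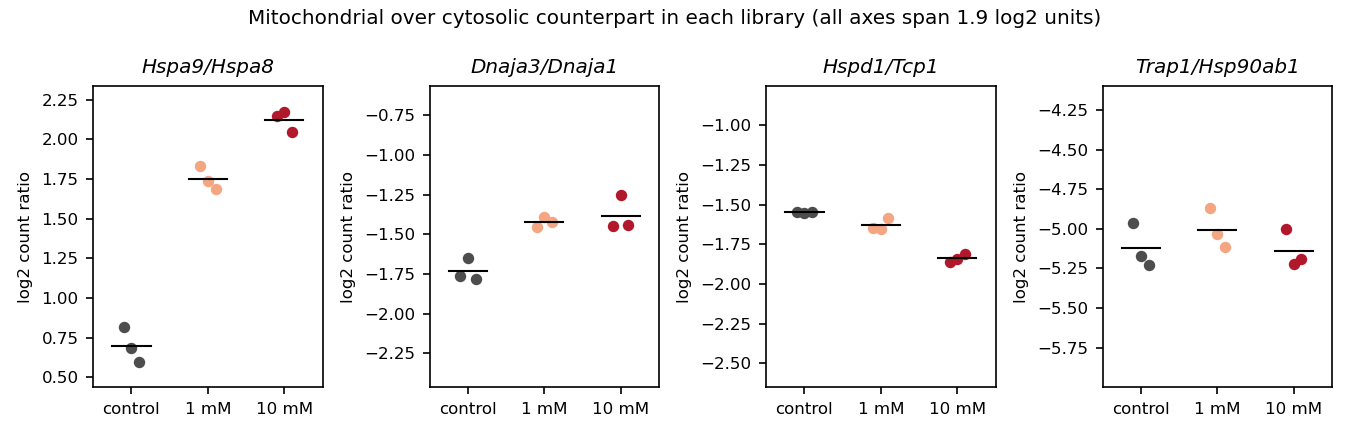
Log2 ratio of counts of a mitochondrial gene over its cytosolic counterpart in each of the 9 libraries (points) and group means (lines), for control, 1 mM and 10 mM 2-DG, with all vertical axes spanning the same range. Hspa9/Hspa8 is below 0.9 in every control library and above 2.0 in every library of 10 mM, Hspd1/Tcp1 is lower at 10 mM, and Trap1/Hsp90ab1 overlaps.

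The ER is the compartment named by the series, and its chaperones give the scale for the other compartments. Of 14 chaperone genes of the ER lumen, 13 were higher at 10 mM and the same number at 1 mM, with median log2 fold changes of 2.12 and 1.52. Hspa5, the HSP70 of the ER, was at 2.83 ± 0.077 in 10 mM and 2.07 ± 0.074 in 1 mM against control, and Hyou1, its HSP110 partner, at 2.29 ± 0.058 and 1.69 ± 0.057. Hsp90b1, the HSP90 of the ER, was at 2.06 ± 0.079 and 1.55 ± 0.078. The largest rises in the list at 10 mM were those of Sdf2l1 (2.96), a cofactor of ER J proteins, Hspa5 and Creld2 (2.76), and Dnajc10 did not pass (-0.069, adjusted p = 0.409). Within the HSP70 family the ER genes lay on both sides of Hspa9 at 10 mM. The 95% interval of Hspa9, 1.15 to 1.57, lay below those of Hspa5 (2.66 to 3.00) and Hyou1 (2.16 to 2.41). It lay above that of Hspa13, an HSP70 of the ER named here after its values were seen, which rose by 0.93 ± 0.06 at 10 mM (95% interval 0.80 to 1.07, adjusted p = 9.15e-07) and 0.44 ± 0.059 at 1 mM (adjusted p = 9.95e-04). The interval of Hspa9 also lay above those of all 8 cytosolic members, the highest of which reached 0.51. Within the HSP90 family the interval of Hsp90b1 (1.88 to 2.23) lay above that of Trap1 (-0.071 to 0.36), which overlapped those of Hsp90aa1 and Hsp90ab1.

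**Figure D4:**
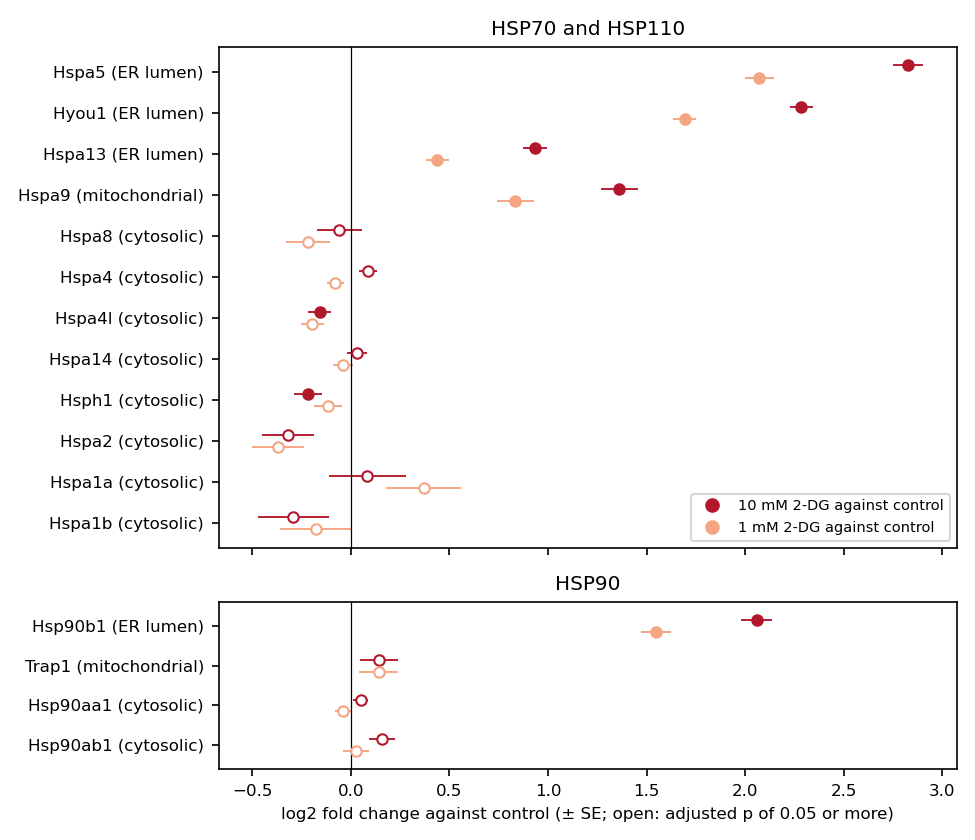
Log2 fold changes of the HSP70 and HSP110 genes (top) and the HSP90 genes (bottom) of the ER lumen, mitochondria and cytosol, in 10 mM against control (dark red) and 1 mM against control (orange), with bars for the SE and filled points for an adjusted p under 0.05. Hspa5, Hyou1 and Hsp90b1 lie above 1.5 at both doses, Hspa9 lies at 1.36 and 0.83, Hspa13 lies at 0.93 and 0.44, and the cytosolic genes and Trap1 lie within 0.4 of 0.

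**Figure D5:**
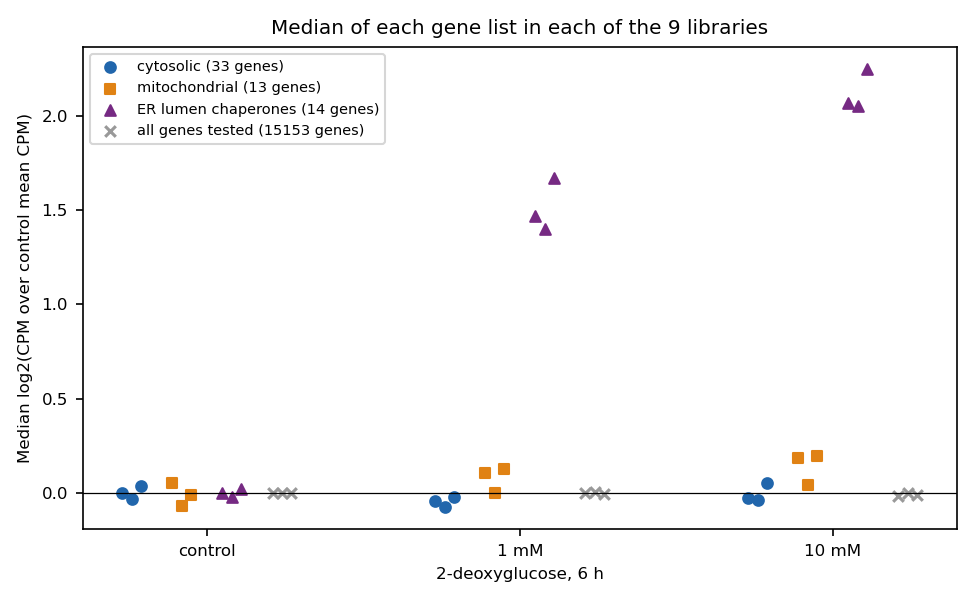
Median over the genes of a list of the log2 ratio of CPM to the mean CPM of the control, in each of the 9 libraries, for the cytosolic members (circles), the mitochondrial members (squares), the chaperones of the ER lumen (triangles) and all genes tested (crosses). The ER list stands at 1.40 to 1.67 at 1 mM and at 2.05 to 2.25 at 10 mM, while the cytosolic and mitochondrial medians stay within 0.2 of 0 in all libraries.

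Genes of the same pathways outside the 46 were counted in the same way. Of all genes tested, 25.7% were higher and 24.0% lower at 10 mM, and 5.69% and 4.34% at 1 mM. Of 31 other cytosolic chaperones and co-chaperones, 9 were higher and 4 lower at 10 mM, with a median of 0.020, and 0 were higher (2 at an unadjusted p under 0.05, 0 in DESeq2) and 1 lower at 1 mM. The largest changes among those that passed were in Hspb6, a small heat shock protein of muscle and heart (-1.14), Fkbp5, an HSP90-binding immunophilin induced by glucocorticoids (-0.54), and Dnajc2, a J protein at the ribosome (0.45). The 13 mitochondrial members had a median of 0.14 at 10 mM, with 5 higher (38.5%) and 1 lower (7.69%). Whether these shares differ from those of all genes was not tested, and the members were listed with earlier results known. Of 20 other mitochondrial chaperones and proteases, 6 were higher and 5 lower at 10 mM, with a median of -0.052, and 2 were higher and 0 lower (1 at an unadjusted p under 0.05, 1 in DESeq2) at 1 mM. The largest were Clpb, a disaggregase of the intermembrane space (0.58), Immp1l, a peptidase of the inner membrane (-0.53), and Mipep, a peptidase that trims imported proteins (0.52). The 2 that rose at 1 mM were Grpel2, the second exchange factor of mortalin (0.20, adjusted p = 0.0294), and Clpb (0.24, adjusted p = 0.0376).

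Levels are given per length, as CPM per kilobase of annotated exon (GENCODE vM21, build mm10), with the exons of all transcripts of a gene merged. This length can far exceed that of 1 transcript, so the order of genes below is rough. Cct3 and Cct7 have 6.37 and 6.78 kb of exon, but their longest coding transcripts hold 1903 and 2367 windows of 75 bases. For Cct5 these are 2.77 kb and 1779 windows. In the control Hsp90ab1 led at 705 ± 46.8 (SD, n = 3), followed by Cct5 at 209 ± 10.5, Cct2 at 185 ± 10.5, Fkbp4 at 149 ± 8.70 and Stip1 at 134 ± 7.28. Hspa9 was the highest mitochondrial member at 90.8 ± 6.32, ahead of Hspd1 at 65.7 ± 4.55 and Clpp at 53.5 ± 3.50. At 10 mM Hspa9 stood at 234 CPM per kilobase, level with Cct5 at 235 and behind Hsp90ab1 at 787. At the low end in the control were Hspa1a at 0.305 ± 0.0318, Bag3 at 0.817 ± 0.0696 and Hspb1 at 1.63 ± 0.391. Hspa1b at 1.00 ± 0.0644 and Hspa2 at 1.59 ± 0.203 lay between them, of which Hspb1 and Hspa2 did not differ beyond their spread. Of the 75-base windows, 54.2% for Hspa1a, 55.8% for Hspa1b and 47.3% for Hspb1 occurred in other genes. The levels of these genes are therefore uncertain. All 6 members under 5 CPM in the control were cytosolic, while the mitochondrial members ranged from 35.7 to 392 CPM.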

How the data were processed

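The authors deposited a table of raw read counts for each gene in 9 libraries. Per the labels' protocols, the cDNA came from the Ovation RNA-Seq System V2, the libraries from a stranded kit with removal of ribosomal RNA, and 75-base paired reads were aligned to mm10 with STAR 2.4.0; the submitters' processing notes name HTSeq and bcl2fastq 2.17. No source used here states the annotation or the strand setting. Columns were mapped by library title. Of 24061 rows, 1 names no gene (9 to 104 counts, at most 0.000216% of a library) and stayed out of library sizes and tests, and 4 rows share 2 symbols.

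The counts were filtered with filterByExpr (minimum count 10, minimum total 15), which left 15153 genes, scaled by TMM and tested with edgeR's quasi-likelihood test over all 9 libraries (3 groups, no block, two-sided, Benjamini-Hochberg over all genes, threshold 0.05). SE is the log2 fold change over the square root of F, and 95% intervals use the t distribution of that fit. CPM values use TMM library sizes. SE, intervals and p-values rest on 3 libraries per group, and PCR reads that carry no molecular identifiers are not separate molecules. Scripts were tested on simulated data. The software was R 4.3.3, edgeR 4.0.16, limma 3.58.1 and DESeq2 1.42.0.

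The members and gene lists were chosen with earlier results of these data known. All 46 members are named, 16 chosen ones and up to 10 that passed per compartment with every library's value; of other lists, the 3 with the largest change that passed, and Hspa5, Hsp90b1 and Hyou1. Libraries with the same replicate number in the labels deviated from their group means together (correlations of 0.351 to 0.518 over 9 pairs, against -0.344 to -0.112 over 18 pairs with different numbers). The number may therefore pair the samples, but the labels do not say what it marks. The main fit left it out, since the labels name independent replicates, so its SE and intervals ignore any pairing. With the block 13 further members passed in 10 mM against control, 18 in 1 mM against control and 8 in 10 mM against 1 mM. Alternatives were other size factors, no filter, DESeq2, the replicate block, a fit of the 6 libraries compared, and leaving out each library; leaving out the 3 libraries numbered 2 was chosen after seeing the data, since they stood farther from the rest of their groups. Shared 75-base windows and exon overlaps were read from GENCODE vM21 transcripts, and promoters from RefSeq.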

Additional observations from a re-analysis of the deposited data

How the results depend on the processing

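Of the 22 members that passed in 10 mM against control, 14 passed in all 16 alternatives, as did 1 of 3 in 1 mM against control (Hspa9) and 8 of 18 in 10 mM against 1 mM. The replicate block kept every one of these calls, added those given above and changed no other call. Given next are counts of members that passed (adjusted p under 0.05). They are listed where an alternative's count differed from the main fit's by over 1.5 times, or where only 1 of the 2 counts was 0. In 10 mM against control, library totals alone gave 5 cytosolic members higher and 3 mitochondrial members lower, and the block gave 13 cytosolic and 8 mitochondrial members higher and 2 mitochondrial members lower. Leaving out libraries gave 5 to 8 cytosolic members higher (5 without control replicate 2 or 10 mM replicate 3), 5 to 8 lower (5 without control replicate 3) and 1 to 2 mitochondrial members lower (2 without the 3 libraries numbered 2). The shares of all genes moved as well, to 20.8 to 25.3% higher and 19.6 to 25.6% lower on leaving out libraries. In 1 mM against control, the cytosolic count higher was 0 without a filter and in a fit of the 6 libraries compared, 2 with the block, and 0 to 1 on leaving out libraries (1 without 10 mM replicate 2 alone). The cytosolic count lower, 0 without the block, was 2 with library totals alone, 1 without a filter, 2 in DESeq2, 11 with the block and 0 to 2 on leaving out libraries. The mitochondrial count higher was 1 with library totals alone, 1 without a filter, 6 with the block and 1 to 3 on leaving out libraries, and the count lower was 2 with the block. Of all genes, 5.35% were higher and 4.89% lower there with library totals alone, and 3.24% and 2.82% without a filter. DESeq2 gave 6.94% and 5.79%, the fit of 6 libraries 4.43% and 3.28%. Leaving out libraries gave 3.32 to 7.26% higher and 1.91 to 6.04% lower. In 10 mM against 1 mM, the cytosolic counts were 4 higher with library totals alone, 1 lower without a filter, and 4 to 10 higher and 1 to 3 lower on leaving out libraries, and the mitochondrial count higher was 2 with library totals alone and 2 to 5 on leaving out libraries. Of all genes, 10.3% were higher and 19.5% lower there with library totals alone, and 11.1% and 8.4% without a filter. On leaving out libraries 12.1 to 17.6% were higher and 9.08 to 15.1% lower. The cause of these shifts was not tested. The ratios Hspa9/Hspa8 (1.42), Dnaja3/Dnaja1 (0.35) and Hspd1/Tcp1 (-0.29) were past the threshold in every alternative except with arrangements within replicate numbers (the replicate block). There the exact permutation p before adjustment was 0.0278, the smallest possible, for Hspa9/Hspa8 and Hspd1/Tcp1. For Dnaja3/Dnaja1 it was 0.0833, above the threshold before adjustment as well. No member that passed changed sign. Among differences of members that did not pass without the block, 18 changed sign in some alternative, with an adjusted p of 0.317 or more wherever the sign had changed; 1 of them, Hspa4 in 10 mM against control, passed with the block. The ratio Trap1/Hsp90ab1 changed sign too. With library totals alone these were, in 10 mM against control, Hspa1a (-0.0052), Hspa4 (-0.0027), Hspa14 (-0.058), Hsp90aa1 (-0.041) and Hspe1 (-0.039), and in 1 mM against control Hsf2 (-0.00091). On leaving out libraries the values ran, in 10 mM against control, from -0.10 to 0.0090 for Dnajb2, -0.017 to 0.049 for Hspa14, -0.096 to 0.20 for Hspa1a, -0.15 to 0.010 for Hspa8, -0.32 to 0.072 for Hspb1, -0.070 to 0.13 for Hspe1, -0.064 to 0.027 for Spg7 and -0.086 to 0.062 for the ratio Trap1/Hsp90ab1. In 1 mM against control they ran from -0.17 to 0.079 for Bag3, -0.052 to 0.021 for Cct5, -0.0061 to 0.090 for Chordc1, -0.25 to 0.11 for Cryab, -0.0066 to 0.027 for Hsf2, -0.022 to 0.082 for Hsp90ab1, -0.15 to 0.041 for Hspe1, -0.078 to 0.00060 for Spg7 and -0.074 to 0.027 for Tcp1. The 5 members under 4 CPM in the control had the widest intervals.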

Other observations

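Proteins enter mitochondria through the translocases of the outer (TOM) and inner (TIM) membrane, and mortalin works at the inner side of that path. Of 19 genes of this import machinery, 7 were higher and 3 lower in 10 mM against control, with a median log2 fold change of 0.029, and 1 was higher and 1 lower in 1 mM against control. The largest changes at 10 mM among those that passed were in Timm8a1, a chaperone of the intermembrane space (0.50 ± 0.16 SE, adjusted p = 0.0245), Timm17b, a subunit of the inner membrane channel (-0.40 ± 0.057, adjusted p = 2.04e-04), and Timm44, which anchors mortalin at the channel (0.38 ± 0.047, adjusted p = 9.58e-05). At 1 mM Timm21 was higher (0.31, adjusted p = 0.0114) and Tomm7 was lower (-0.27, adjusted p = 0.0404); both were named for being the members of that list that passed there, after their values were seen.

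Groups that did not overlap were counted as well. In 10 mM against control, 6 of the 13 mitochondrial members had all 3 libraries of 10 mM above all 3 of the control and 2 had them below, against 11 and 9 of the 33 cytosolic members. In 1 mM against control, 4 mitochondrial members lay above and 1 below, against 2 and 10 of the cytosolic members. Over all genes tested, 29.2% lay above and 27.6% below in 10 mM against control, and 14.7% and 13.1% in 1 mM against control. The share of genes called by the test was 25.7% higher and 24.0% lower at 10 mM, and 5.69% and 4.34% at 1 mM.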
